A study of Americamysis bahia with 35 samples.

Results

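The 32 genes described here were chosen by their counts: in all 5 libraries of juvenile mysids kept in unweathered tire-wear particle leachate at 1.08 g/L, each gene lay below every control library and below every library of weathered leachate at 1.34 g/L. Each gene also had a mean of at least 5 CPM, a read count scaled to a common library total, over the 35 libraries, and at least 1 library of weathered leachate at 2.68 g/L was not below the lowest control. Of 22900 Trinity genes (groups of assembled transcripts that share a Trinity gene ID), 9252 had a mean of 5 CPM or more. In 197 of these every unweathered 1.08 g/L library lay below every control, 41 were also below every weathered 1.34 g/L library, and the last condition removed 9 of the 41. The groups that made the choice are therefore described below without a test, except where the authors' deposited tables are cited. New tests are given only for unweathered 0.54 and 0.27 g/L and weathered 0.67 g/L. The libraries of these 3 groups entered the choice through the mean over 35 libraries alone, and they are called the groups outside the choice below.

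Americamysis bahia is a small estuarine crustacean that is widely used in marine toxicity tests because its juveniles are sensitive and easily reared. Tire rubber carries zinc compounds, vulcanisation accelerators such as benzothiazoles, and antioxidants, and part of these leave the particles in water. The files name no genes here, so what these members encode is not known.

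RNA of whole bodies was sequenced from mysids, given an age of 5 days in the labels, after 96 h of exposure, from libraries of poly(A)-selected RNA. There were 7 groups of 5 libraries. The control had seawater of 25 ppt with 0 g/L of leachate, 3 groups had unweathered leachate (0.27, 0.54 or 1.08 g/L), and the remaining 3 groups had weathered leachate (0.67, 1.34 or 2.68 g/L). All groups shared the seawater, a temperature of 25 °C, a light period of 16 h with 8 h of dark, and Artemia nauplii as food every 12 h. From the labels it is not known whether replicate libraries stand for single animals, pooled animals or tanks, nor how the weathering was done. The p-values therefore reflect nothing but how much these libraries differ within a group, and that spread may be technical. In bulk samples such as these, fewer cells of a type and less RNA per cell cannot be told apart. Total estimated counts per library ran from 18081325 to 28390588. TMM factors, which rescale each library total so that most genes stay level, ran from 0.78 in weathered 0.67 g/L replicate 1 to 1.15, and control replicate 4 had a factor of 0.919 against 1.08 to 1.14 in the other 4 controls.

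The files do not pair Trinity IDs with gene names, so 4 members are given by ID and the others by their rank in mean CPM among the 32, where rank 1 has the most counts. For the same reason no list of pathway genes or tissue markers could be run.

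The members covered a wide range of levels and included some of the most heavily counted genes of the animal. Mean CPM ran from 6.18 to 3708, with 16 members over 100 CPM, 13 between 10 and 100 CPM and 3 under 10 CPM. Per length, the mean level ran from 4.85 to 6340.2 TPM, in which counts are divided by transcript length before scaling, and the most abundant was the member of rank 1. Together the 32 members held 1.61% of all counts. By counts, 3 stood among the 100 most abundant of the Trinity genes, 13 among the 500 most abundant and 16 among the 1000 most abundant. The leading isoform of a member was 652 to 2773 bases long, with a median of 1413.5 bases, against 2082 bases over all genes at 5 CPM or more. A single isoform was listed for 19 members (59.4%, against 55.1% of genes at 5 CPM or more), and the 32 members came from 32 separate Trinity components, the units of the assembly that the IDs name. The smallest count of any member in any library, summed over its isoforms, was 72 reads, so no gene-level value below rests on a handful of reads. Values of single isoforms can rest on fewer reads.

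At 1.08 g/L the distance from the control differed widely between the members. The mean CPM was 25.8% to 92.9% of the control mean, with a median of 75.6% over the members. It was under 50% in 2 members, between 50% and 75% in 14, between 75% and 90% in 15 and above 90% in 1. Every library of 1.08 g/L lay below every control in all 32 by the choice itself, which 2.13% of genes at 5 CPM or more met. The median was 82.0% in members at 100 CPM or more and 70.5% in members under 100 CPM. The choice favours genes whose controls lie close together: the coefficient of variation over the 5 controls had a median of 5.90% in the members, against 14.8% over genes at 5 CPM or more and 13.2% over genes at 100 CPM or more.

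Many members passed the choice narrowly. The highest 1.08 g/L library lay below the lowest control by 0.32% to 43.1%, with a median of 6.73%, and by under 5% in 13 members. Nearest inside, the member of rank 27 had 15.38 CPM in its highest 1.08 g/L library and 15.43 CPM in its lowest control. Nearest outside on this condition was a gene with 5.037 CPM against 5.033 CPM. On the condition against weathered 1.34 g/L, the member of rank 30 passed with 8.795 against 8.829 CPM, and a gene with 22.88 against 22.83 CPM failed. The mean CPM nearest the floor of 5 was 6.18 inside and 4.71 outside. The control condition alone kept out 44 genes, the weathered 1.34 g/L condition alone 133 and the floor alone 7.

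A description of these genes as lowered by unweathered leachate only goes against the data in part, since many libraries of weathered 2.68 g/L were low as well. In 2 members none of the 5 weathered 2.68 g/L libraries lay below the lowest control, in 5 members 1 did, in 8 members 2 did, in 4 members 3 did and in 13 members 4 did. The weathered 2.68 g/L mean was 56.6% to 103.8% of the control mean, with a median of 90.4%. By library, 6, 19, 28, 16 and 16 of the 32 members lay below the lowest control in weathered 2.68 g/L replicates 1 to 5. Replicate 1 had the fewest, and without it 23 of the 32 would have been kept. The fitted level at 1.08 g/L was below that at weathered 2.68 g/L in all 32, against 53.1% of genes, with a median log2 change of -0.23. In 5 members every 1.08 g/L library lay below every weathered 2.68 g/L library, which 0.454% of genes at 5 CPM or more met. The choice held 1.08 g/L below the lowest control and asked at least 1 weathered 2.68 g/L library not to lie below it. Both counts of 1.08 g/L against weathered 2.68 g/L therefore in part follow from the choice.

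**Figure D1:**
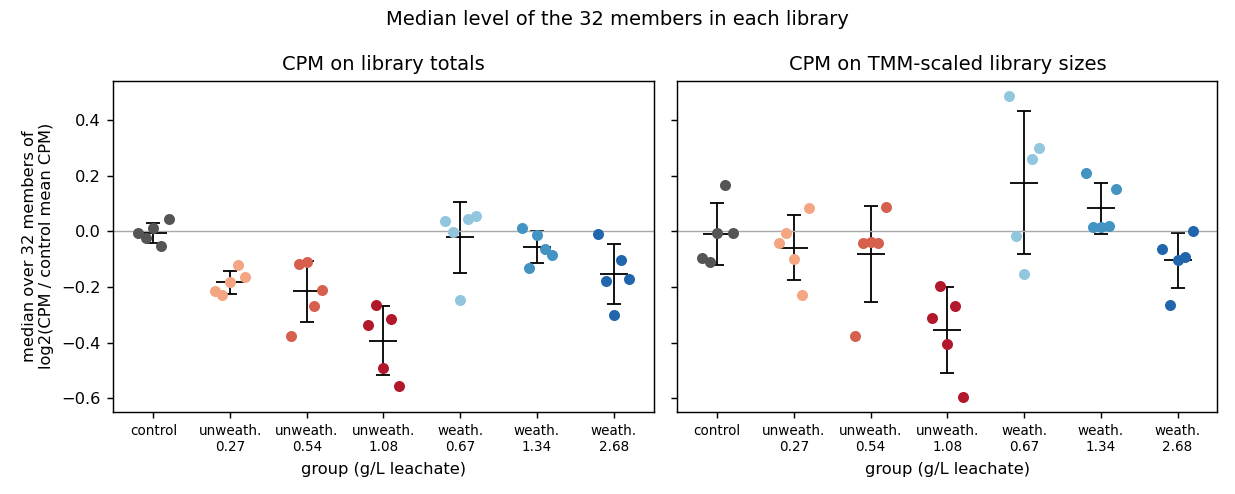
Median over the 32 members of log2(CPM / control mean CPM) in each of the 35 libraries, by group, with the group mean and SD (n = 5), from CPM on library totals (left) and on TMM-scaled library sizes (right). On library totals the unweathered groups step down from -0.18 to -0.39, and on the TMM scale the 0.27 and 0.54 g/L groups lie near 0 while weathered 0.67 g/L lies at 0.17.

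The share of all counts taken by the members was 1.75% ± 0.0506 (SD, n = 5) in the control. With unweathered leachate of 0.27, 0.54 and 1.08 g/L the share was 1.54% ± 0.0632, 1.505% ± 0.130 and 1.37% ± 0.0846 (SD, n = 5 each). With weathered leachate of 0.67, 1.34 and 2.68 g/L it was 1.79% ± 0.123, 1.70% ± 0.0830 and 1.60% ± 0.150. The means of the control and of weathered 0.67 g/L differed by less than their SDs, and so did those of unweathered 0.27 and 0.54 g/L. The lowest group, unweathered 1.08 g/L, is the one the choice used.

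Whether the members were below the control at 0.27 and 0.54 g/L depended on the scaling. On library totals the median member stood at -0.18 ± 0.04 (log2 ratio to the control mean, SD over 5 libraries) with 0.27 g/L, and at -0.22 ± 0.11 and -0.39 ± 0.12 with 0.54 and 1.08 g/L. On TMM-scaled sizes the same medians were -0.06 ± 0.12, -0.08 ± 0.17 and -0.36 ± 0.15, so those at 0.27 and 0.54 g/L lay within 1 SD of 0. For weathered leachate, in rising order of concentration, they were -0.02 ± 0.13, -0.06 ± 0.06 and -0.15 ± 0.11 on library totals. On the TMM scale these were 0.17 ± 0.26, 0.08 ± 0.09 and -0.11 ± 0.10. Library totals also moved the median of all 17990 genes tested, by -0.13, -0.14 and -0.18 against the control with unweathered 0.27, unweathered 0.54 and weathered 0.67 g/L. Relative to that shift the members stood at -0.05, -0.07 and 0.17, close to the TMM values. In weathered 0.67 g/L high medians went with low TMM factors: the 3 libraries with the highest TMM medians (0.49, 0.26 and 0.30) had factors of 0.78, 0.924 and 0.900, and the other 2 libraries (-0.02 and -0.16) had 1.08 and 1.00. The part of the factor in these values was not tested.

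Separation from the control libraries also depended on the scaling. On library totals, every 0.54 g/L library lay below every control in 6 of 32 members, against 2.28% of genes at 5 CPM or more, and every 0.27 g/L library in 7 of 32, against 0.897%. On TMM-scaled sizes each count was 1 of 32, against 0.778% and 0.562% of genes. In weathered 0.67 g/L it was 0 of 32 on both scales, against 3.16% and 2.36%. The lowest control that bounds these counts was also the limit of the choice, which favours genes with close controls. The 6 and 7 at 0.54 and 0.27 g/L therefore in part follow from the choice and are not read as a trait of the members. The same count in weathered 1.34 and 2.68 g/L, groups of the choice, was 0 of 32 on both scales. The shares of genes were 6.03% and 0.951% on library totals and 2.91% and 1.38% on TMM-scaled sizes. On library totals the 0 at 2.68 g/L was fixed by the choice and is no result. The choice required at least 1 of those libraries not to be below the lowest control. For the contrast that made the choice, 16 of the 32 members still had every 1.08 g/L library below every control on TMM-scaled sizes (1.74% of genes), and 31 of 32 had every 1.08 g/L library below every weathered 1.34 g/L library (2.1% of genes).

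**Figure D2:**
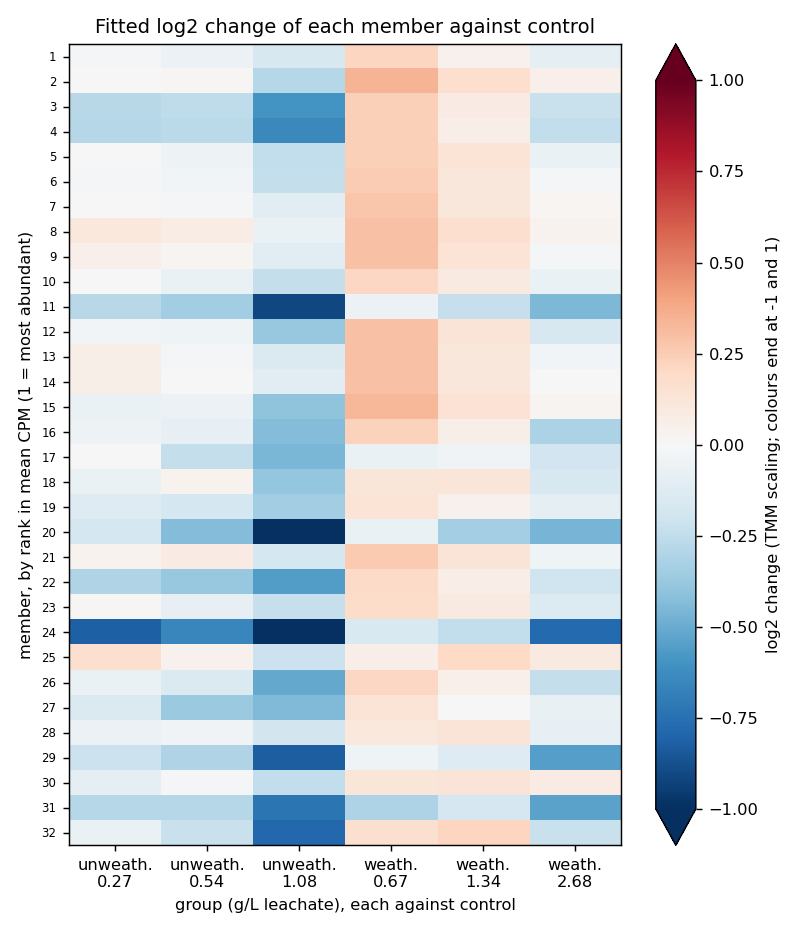
Fitted log2 change of each of the 32 members against control, in the 6 exposed groups, on the TMM scale, with colours ending at -1 and 1 and members ordered by rank in mean CPM. All 32 are below 0 in the unweathered 1.08 g/L column that the choice used (49.3% of all genes tested), 26 are above 0 with weathered 0.67 g/L, and 25 and 24 are below 0 with unweathered 0.54 and 0.27 g/L.

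The members lowest at 1.08 g/L relative to control were not the most abundant ones. TRINITY_DN3666_c0_g1, of rank 24 and 21.4 TPM, had 41.6, 40.5, 60.4, 27.03 and 42.6 CPM in the controls and 8.41, 12.5, 8.68, 15.4 and 9.86 CPM at 1.08 g/L. All 5 exposed libraries lay well under the lowest control, which was replicate 4. At 0.27 g/L it had 23.0, 20.6, 26.9, 20.7 and 17.8 CPM, and at 0.54 g/L 35.5, 14.9, 18.3, 23.4 and 28.9 CPM. Every 0.27 g/L library was thus below every control, while 2 libraries of 0.54 g/L, replicates 1 and 5, were not. Weathered leachate gave 37.6, 40.0, 15.1, 28.6 and 39.6 CPM at 0.67 g/L, 44.6, 20.8, 24.0, 35.9 and 34.2 CPM at 1.34 g/L and 41.7, 22.4, 11.7, 23.2 and 21.2 CPM at 2.68 g/L. Both lower weathered groups overlapped with the control, and at 2.68 g/L only replicate 1 reached it. Both contrasts of the choice had a log2 change below 0, of -1.89 (SE 0.29) with 1.08 g/L and -0.78 (SE 0.28) with weathered 2.68 g/L. In the groups outside the choice, edgeR's quasi-likelihood test gave a log2 change against control of -0.82 (SE 0.28, adjusted p = 0.420) at 0.27 g/L and -0.65 (SE 0.28, adjusted p = 0.431) at 0.54 g/L. This was the largest shift of any member against control at both concentrations, and neither passed the adjustment over 17990 genes.

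TRINITY_DN2261_c4_g1, of rank 20 and 132 TPM, had 123, 86.6, 86.6, 62.9 and 114 CPM in the controls and 56.2, 30.1, 37.9, 27.4 and 23.7 CPM at 1.08 g/L. The highest exposed library, replicate 1, came close to control replicate 4 and the other 4 lay far below. At 0.27 g/L it had 102, 58.0, 84.8, 64.0 and 69.2 CPM, and at 0.54 g/L 36.8, 72.5, 68.4, 69.7 and 64.9 CPM. Replicate 1 of 0.54 g/L lay far under the other 4, which lay between control replicate 4 and the other controls. Its weathered levels were 87.3, 91.5, 74.2, 75.4 and 56.5 CPM at 0.67 g/L, 65.03, 67.7, 57.9, 70.0 and 73.7 CPM at 1.34 g/L and 81.3, 65.3, 69.5, 45.0 and 65.2 CPM at 2.68 g/L. The 3 weathered means were 77.0, 66.9 and 65.3 CPM, and each step was smaller than the SD of 13.7 CPM in the first of these groups. The log2 change was -1.37 (SE 0.23) at 1.08 g/L, a contrast of the choice. Outside the choice it was -0.43 (SE 0.22, adjusted p = 0.532) at 0.54 g/L and -0.17 (SE 0.22, adjusted p = 0.963) at 0.27 g/L against control by edgeR.

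At the other end stood the members that were highest at weathered 2.68 g/L against control. TRINITY_DN18165_c0_g1, of rank 25 and 17.7 TPM, had 23.6, 31.9, 24.3, 29.3 and 25.8 CPM in the controls and 22.0, 23.2, 21.8, 22.8 and 23.4 CPM at 1.08 g/L. The highest exposed value lay just under the lowest control, a gap of 0.94%. At 0.27 g/L it had 28.9, 22.5, 28.3, 30.8 and 28.6 CPM, and at 0.54 g/L 26.2, 25.6, 24.4, 24.4 and 25.8 CPM, both within or near the control range. In weathered leachate it had 17.5, 26.8, 26.2, 26.3 and 26.8 CPM at 0.67 g/L, 27.3, 29.9, 30.0, 28.1 and 25.4 CPM at 1.34 g/L and 29.8, 31.2, 25.1, 29.5 and 24.3 CPM at 2.68 g/L. Apart from replicate 1 of weathered 0.67 g/L, which lay below every other library of the gene, the weathered groups overlapped with the control. Its log2 change against control was -0.21 (SE 0.09) with 1.08 g/L and 0.16 (SE 0.09, adjusted p = 0.771 by edgeR) with 0.27 g/L, and its mean with 0.27 g/L was 103% of control.

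TRINITY_DN14306_c0_g1, of rank 2 and 2454 TPM, had 3399, 3142, 3524, 3511 and 3664 CPM in the controls and 2999.9, 2868, 2479, 2908 and 2554 CPM at 1.08 g/L. The groups were separate, with control replicate 2 nearest to the exposed libraries. At 0.27 g/L it had 2999.8, 2858, 3134, 3472 and 3334 CPM, and at 0.54 g/L 2759, 3343, 3456, 3142 and 3112 CPM. Both groups overlapped with the control. In weathered leachate it had 3846, 3869, 3472, 3897 and 3798 CPM at 0.67 g/L, 3522, 3233, 3876, 3417 and 3591 CPM at 1.34 g/L and 3533, 3099, 2935, 4391 and 3371 CPM at 2.68 g/L. The 0.67 g/L libraries lay above all controls except for replicate 3, and the highest value of all libraries was replicate 4 of 2.68 g/L. Every 0.54 g/L library lay below every weathered 0.67 g/L library on library totals, in this member alone of the 32, against 0.53% of genes, and in none of the 32 on TMM-scaled sizes, against 0.422%. Its log2 change was 0.34 (SE 0.11, adjusted p = 0.151 by edgeR) at weathered 0.67 g/L against control, the highest of any member there. Unweathered 0.54 g/L differed from weathered 0.67 g/L by -0.33 (SE 0.11, adjusted p = 0.261) and 0.27 g/L by -0.35 (SE 0.11, adjusted p = 0.231), in the same test.

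**Figure D3:**
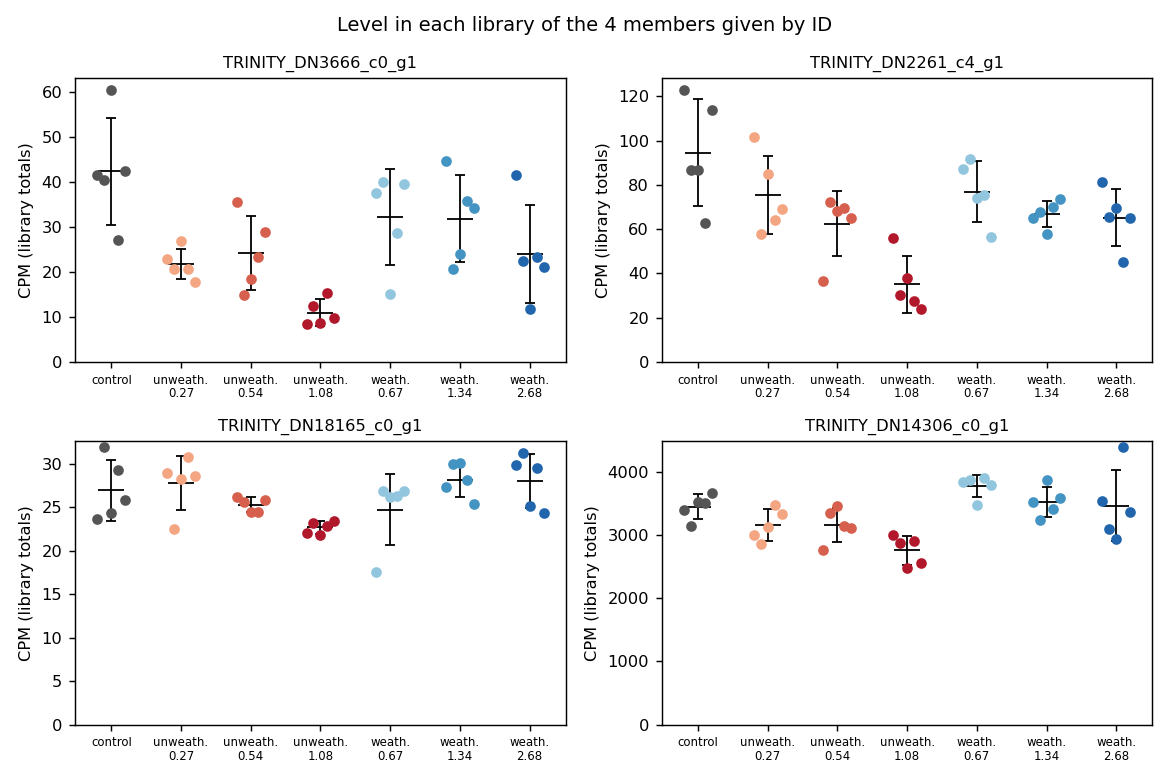
CPM on library totals of the 4 members given by ID in each of the 35 libraries, with the group mean and SD (n = 5). The 2 upper panels hold the members lowest at unweathered 1.08 g/L, at 25.8% and 37.0% of the control mean, and the 2 lower panels hold members that stood at 103.8% and 101% of it at weathered 2.68 g/L.

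The members of ranks 1 and 5 stood close to the control in proportion. The member of rank 1 had 4092, 4001, 3890.4, 4289.5 and 3679 CPM in the controls and 3324, 3558, 3466, 3469 and 3553 CPM at 1.08 g/L, which is 87.1% of the control mean. Only control replicate 5 came near the exposed range. Its means at 0.27 and 0.54 g/L were 3631 ± 127 and 3497 ± 227 CPM (SD, n = 5), so most of its difference from the control was already there at 0.27 g/L on library totals. On the TMM scale its log2 changes against control were -0.01 (SE 0.11, adjusted p = 0.995 by edgeR) at 0.27 g/L and -0.06 (SE 0.11, adjusted p = 0.929) at 0.54 g/L. The member of rank 5 had 1198, 1208, 1195, 1262 and 1301 CPM in the controls and 1063, 1069.7, 947, 1042 and 929.6 CPM at 1.08 g/L, or 82.0% of the control mean. At 0.54 g/L its replicate 1 had 830.4 CPM, below every 1.08 g/L library, and the other 4 had 1070.0 to 1225 CPM.

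The members of ranks 3 and 4 moved together and more steeply. Rank 3 had 2043, 1819, 2288, 1971 and 2001 CPM in the controls, and rank 4 had 1352, 1273, 1609, 1385 and 1359 CPM. At 1.08 g/L they had 1450.4, 1514, 1118, 1393 and 999.97 CPM and 991, 1024, 741, 942 and 636 CPM, which is 64.0% and 62.1% of the control means. At 0.27 g/L, rank 3 had 1363, 1656, 1488, 1461 and 1649 CPM and rank 4 had 882, 1164, 1055, 1004 and 1115 CPM. Every one of these libraries lay below every control in both genes, and the same held for rank 3 at 0.54 g/L, with 1265, 1763, 1668, 1224 and 1779 CPM, but not for rank 4, whose replicate 2 had 1301 CPM. In weathered 0.67 g/L both had a mean of 101% of control, with 2084, 2007, 1607, 2334 and 2242 CPM for rank 3 and replicate 3 the lowest. On the TMM scale the changes at 0.27 g/L against control were -0.28 (SE 0.17) and -0.29 (SE 0.18), with adjusted p = 0.801 and 0.832 by edgeR. The ratio of rank 3 to rank 4 stayed between 1.36 and 1.63 in the 35 libraries, with a median of 1.47 and a coefficient of variation of 3.47%, while the CPM of rank 3 itself ran from 999.97 to 2334. In the assembly they are separate components, with leading isoforms of 870 and 962 bases.

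**Figure D4:**
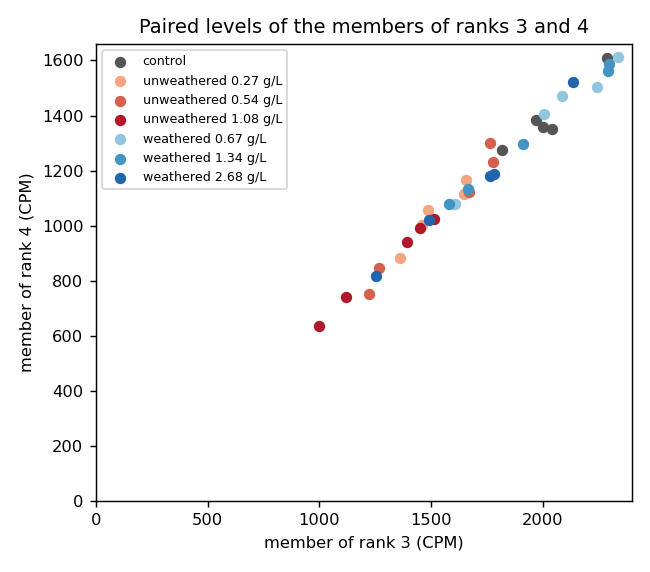
CPM of the member of rank 4 against that of rank 3 in the 35 libraries, coloured by group. The points lie along 1 line, from 999.97 and 636 CPM for ranks 3 and 4 in an unweathered 1.08 g/L library to 2334 and 1611 CPM in a weathered 0.67 g/L library, with a ratio of rank 3 to rank 4 between 1.36 and 1.63.

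Other members with means under 60% of control at 1.08 g/L were those of ranks 11, 29, 31 and 32, at 50.8%, 54.1%, 58.8% and 56.3%. Ranks 11, 29 and 31 also stood lowest at weathered 2.68 g/L after rank 24, at 71.0%, 65.5% and 67.6% of control, with rank 20 at 69.0%. Rank 32 stood at 83.6% there and at 105% at weathered 1.34 g/L. At the other extreme, ranks 7, 8, 9 and 14 had 89.9%, 92.9%, 89.9% and 89.96% of control at 1.08 g/L and 97.8%, 98.6%, 95.5% and 95.7% at weathered 2.68 g/L.

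The comparisons between groups outside the choice asked whether the members also differed at lower concentrations. Unweathered 0.54 g/L against weathered 0.67 g/L is the nearest pair of concentrations of the leachates outside the choice. The members were lower in the unweathered group in 31 of 32 cases, with a median fitted log2 change of -0.29 and a range from -0.57 to 0.03. Over all 17990 genes tested the median was -0.01 and 52.1% were below 0, and over the 1145 genes at 100 CPM or more the median was -0.07. On library totals the members' median was -0.21 and that of all genes 0.05. The one member above 0 was of rank 31. By edgeR's quasi-likelihood test with Benjamini-Hochberg adjustment, 0 of 32 members were called below 0.05, against 0.0222% of genes, and the lowest adjusted p of a member was 0.0765. At an unadjusted p under 0.05, 21 members were lower and 0 higher, against 4.71% and 5.76% of genes (10.5% in either direction). DESeq2 called 1 member and limma-voom 0, against 152 and 16 of 17990 genes. The count of 21 became 7 without weathered 0.67 g/L replicate 1, the library with the lowest TMM factor, where the median was -0.17. It became 13 without unweathered 0.54 g/L replicate 1, and 6 in a fit of the compared groups alone. For such refits, here and below, no share of all genes at an unadjusted p under 0.05 is given.

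For unweathered 0.27 g/L against weathered 0.67 g/L, 29 of 32 members were below 0, with a median of -0.24 and a range from -0.67 to 0.10, against a median of -0.01 over all genes with 51.5% below 0 and -0.08 over genes at 100 CPM or more. Those above 0 were of ranks 17, 25 and 31. On library totals the median was -0.14, and that of all genes 0.07. edgeR called 0 of 32 members and 0% of all genes, with a lowest adjusted p of 0.131 for a member. At an unadjusted p under 0.05, 17 members were lower and 0 higher, against 4.72% and 5.66% of genes (10.4% in either direction). DESeq2 called 1 member and limma-voom 0, against 158 and 0 of 17990 genes. Without weathered 0.67 g/L replicate 1 the 17 became 4 and the median -0.16. Leaving out that group's replicate 5 gave 10, and there were 9 and 5 without unweathered 0.27 g/L replicates 3 and 4, and 5 in a fit of the compared groups alone.

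The member with the lowest p in both comparisons was of rank 22, which is described because it was called in alternatives, after its values were seen. It had 46.8, 46.0, 51.5, 47.1 and 46.1 CPM at 0.54 g/L, 40.0, 48.9, 60.0, 55.1 and 49.6 CPM at 0.27 g/L and 74.3, 70.3, 47.4, 67.1 and 72.6 CPM at weathered 0.67 g/L. Replicate 3 of weathered 0.67 g/L lay among the unweathered libraries, and the other 4 lay above all of them. Its controls had 67.4, 66.6, 67.1, 64.8 and 74.9 CPM, above every library of the 3 unweathered groups. Unweathered 0.54 g/L differed from weathered 0.67 g/L by -0.57 (SE 0.13, adjusted p = 0.0765 by edgeR), and 0.27 g/L by -0.49 (SE 0.13, adjusted p = 0.131). DESeq2 gave adjusted p = 0.00742 and 0.0267, and edgeR without weathered 0.67 g/L replicate 3 gave 0.00862 and 0.0361. Over all alternatives the adjusted p ran from 0.00742 to 0.732 in the first comparison and from 0.0267 to 0.774 in the second.

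**Figure D5:**
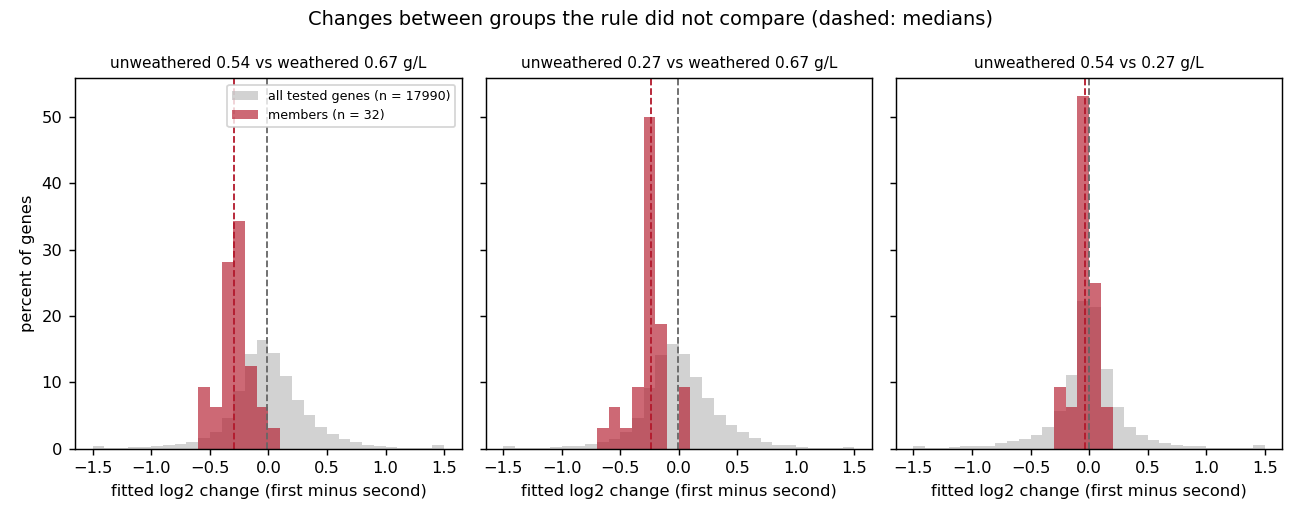
Distribution of fitted log2 changes of the 32 members (red) and of all 17990 tested genes (grey) in 3 comparisons between groups outside the choice, in percent of genes per bin, with dashed lines at the medians. The members' medians are -0.29, -0.24 and -0.04, against -0.01, -0.01 and 0.00 for all genes.

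Between the unweathered concentrations of 0.54 and 0.27 g/L there was little difference. The median member change was -0.04, from -0.25 to 0.17, with 22 of 32 below 0, against 0.00 and 50.1% over all genes. edgeR called 0 of 32 members and 0% of genes, and 1 member, that of rank 17, had an unadjusted p under 0.05, against 2.85% of genes in either direction. DESeq2 and limma-voom called 0 members and 0 of all genes. The median turned to 0.02 without unweathered 0.54 g/L replicate 1 and to 0.01 without 0.27 g/L replicate 5, and the count of 1 became 0 without either of these libraries or without 0.54 g/L replicate 2 or 4. With the control and 1.08 g/L added, the means of 20 members on library totals, and of 15 on the TMM scale, stepped down from control to 0.27, 0.54 and 1.08 g/L, an order that 7.06% and 6.32% of genes at 5 CPM or more showed and that the choice of 1.08 g/L and control in part fixed.

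The next comparisons share the control libraries that the choice used, so that their direction is not independent of it. Against control, the median member change was -0.06 at 0.54 g/L and -0.05 at 0.27 g/L, with 25 and 24 of 32 below 0, against 49.8% and 50.5% of genes. Over all genes the medians were 0.00 and 0.00, and over genes at 100 CPM or more they were 0.05 and 0.05. edgeR called 0 of 32 members at both concentrations, against 0.156% and 0.00556% of genes, and 5 and 2 members had an unadjusted p under 0.05, all lower, against 3.13% and 2.01% of genes lower and 10.1% and 7.28% in either direction. The 5 at 0.54 g/L were of ranks 11, 17, 22, 24 and 27, and the 2 at 0.27 g/L of ranks 22 and 24. DESeq2 and limma-voom called 0 members at both. Of 17990 genes, DESeq2 called 124 and 45, and limma-voom 28 and 1. On library totals, where the median of all genes itself lay at -0.14 and -0.13, the 5 and 2 became 21 and 11. There 32 and 31 members were below 0 and still 0 were called, against 3 and 0 of 17990 genes. Relative to the all-gene medians the members' medians stood at only -0.07 and -0.05. No share of all genes goes with the 21, 11, 32 and 31, so they are not read as a trait of the members. The 5 became 1 without control replicate 3, 3 without control replicate 5 or 0.54 g/L replicate 2 or 3, and 8 without 0.54 g/L replicate 5. The 2 became 1 without control replicate 5 or 0.27 g/L replicate 1 or 4, and 4 in a fit of the compared groups alone. Without control replicate 4 the medians moved to -0.01 and 0.01. The counts below 0 also hung on single libraries. The 25 became 16 without 0.54 g/L replicate 1, 17 without control replicate 4 and 28 without 0.54 g/L replicate 5. The 24 became 16 without control replicate 4 or 0.27 g/L replicate 4, and 28 without 0.27 g/L replicate 5. For these refits no share of all genes below 0 is given.

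At weathered 0.67 g/L most members lay above the control on the TMM scale, but not on library totals. The median change was 0.21 on the TMM scale, from -0.31 to 0.34, with 6 of 32 below 0, against 47% of genes. Over all genes the median was 0.02, and over genes at 100 CPM or more it was 0.18, near that of the members. edgeR called 0 of 32 members, against 0.345% of genes, with a lowest adjusted p of 0.151. DESeq2 and limma-voom called 0 members, against 346 and 83 of 17990 genes. At an unadjusted p under 0.05, 12 members were higher and 0 lower, against 7.49% and 6.22% of genes (13.7% in either direction). Without weathered 0.67 g/L replicate 1 these 12 became 1 and the median 0.09, and in a fit of the compared groups alone they also became 1. On library totals they became 2, and the median was -0.01 with that of all genes at -0.18. The 6 members below 0 were of ranks 11, 17, 20, 24, 29 and 31, which include the members of ranks 20 and 24 that were lowest at 1.08 g/L.

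Within the weathered groups, of which 1.34 and 2.68 g/L served the choice, the means of most members went down with concentration. On library totals 24 of 32 stepped down from 0.67 to 1.34 to 2.68 g/L, against 5.05% of genes at 5 CPM or more, and on the TMM scale 25 did, against 19.5%. The fitted change at weathered 2.68 against 0.67 g/L had a median of -0.31 and was below 0 in 31 of 32, against 49.5% of genes, and the median of genes at 100 CPM or more was -0.11. Weathered 1.34 g/L against control had a median of 0.10 with 7 of 32 below 0, against 46.1% of genes, and weathered 2.68 g/L against control a median of -0.10 with 26 of 32 below 0, against 46.6%.

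Beyond the group means, the members varied together from library to library. Over the 15 libraries of the 3 groups outside the choice, with group means removed, each member was correlated with the mean of the other members on log2(CPM + 0.5) from TMM-scaled sizes. Pearson's r had a median of 0.850 over the members and was over 0.5 in 28 of 32, against a median of 0.0858 and 19.2% over 0.5 in 9220 other genes at 5 CPM or more. Among 1129 other genes at 100 CPM or more the median was 0.452 and 45.4% were over 0.5. On library totals the median was 0.605 with 19 of 32 over 0.5, against -0.08 and 2.60% in the other genes and -0.003 and 7.17% in the abundant ones. The libraries share their scaling factor in all these values, so the r values describe these 15 libraries and carry no test. The members least tied to the others on the TMM scale were those of ranks 30, 31, 25 and 24, with r of 0.0271, 0.121, 0.18 and 0.389. The closest pair of all 496 was ranks 3 and 4, with r = 0.982, and 0.979 on library totals.

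Isoforms of the members are described at 1.08 g/L against control, as far as the estimated counts divide isoforms. Of the 13 members with more than 1 isoform, 9 had more than 1 at a mean of 1 CPM or more, with 24 such isoforms. The mean of 22 of the 24 was lower at 1.08 g/L than in the control, and 6 had every 1.08 g/L library below every control. Their genes were chosen for low counts in these same libraries, so both counts in part follow from the choice. No share over all isoforms is given beside them. The share of the leading isoform moved by under 5 percentage points in 12 of the 13. The exception was rank 32, the member with the lowest counts, from 80.3% ± 14.04 (SD, n = 5) in the control to 71.5% ± 24.5. In ranks 3, 4, 14, 15 and 16 the leading isoform held 99.02% to 99.95% in the control, which leaves little room to move. In ranks 5, 21 and 27 the control SD was 7.54, 5.69 and 7.24 points, above the limit of 5. No share over all genes goes with the 12 of 13, so it is not read as a trait of the members.

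The authors' deposited tables compare each exposed group with the control for 13326 transcripts, of which 41 belong to the 32 members, at least 1 for each. In the authors' deposited table for 1.08 g/L, which rests on libraries of the choice, 14 of these were lower at an adjusted p under 0.05, against 1.14% of transcripts. In the authors' deposited tables for 0.27, 0.54, 0.67, 1.34 and 2.68 g/L the count was 0. The shares of all transcripts lower at that threshold were 0%, 0.015%, 0.278%, 0.015% and 0.165%. The lowest adjusted p-values of a member transcript in the authors' deposited tables were 0.420, 0.229, 0.122, 0.425 and 0.0740. All of these comparisons use the control libraries of the choice, and those for 1.34 and 2.68 g/L also use its weathered libraries. Their counts are therefore not independent of the choice. At an unadjusted p under 0.05 these tables of the authors' deposited set listed 2, 9, 10, 1 and 7 of the 41, against 7.88%, 10.7%, 15.5%, 11.6% and 11.4% of transcripts. The 2, 9 and 7 transcripts at 0.27, 0.54 and 2.68 g/L were all lower, and the 10 and 1 at 0.67 and 1.34 g/L all higher.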

How the data were processed

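The authors deposited an estimated count and a TPM value (a length-scaled share) per Trinity transcript and library, per the file headers. Per the submitters' processing notes, Trimmomatic 0.38, kallisto and DESeq2 were used. Neither the assembly nor a kallisto version is given in the sources read for this work. The authors' deposited tables give an F score, a signed fold change score, a log2 fold change, a log2 mean level and p-values, raw and adjusted, for each exposed group against control.

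Estimated counts were summed per Trinity gene and rounded. CPM on library totals chose the members. edgeR 4.0.16 in R 4.3.3 (filterByExpr, minimum count 10 and minimum total 15; TMM) was fitted to 35 libraries with 7 group means and tested 17990 genes, including all 32 members. Genes were called below an adjusted p of 0.05. The fit was tested on simulated data. DESeq2 1.42.0 and limma 3.58.1 (voom), other scalings, no filter, leaving out libraries and a replicate block were alternatives. The named members are those with the lowest log2 change at 1.08 g/L and the highest at weathered 2.68 g/L against control, 2 of each, with at least 10 CPM. The members and lists were chosen with earlier results of these data known. Shared replicate numbers were not taken to pair the samples.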

Additional observations from a re-analysis of the deposited data

Results flagged for a closer look

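In 70 groups of 5 libraries examined (the median over the members and the 9 members described by value), 7 had a single library far from the other 4, where chance gives about 1 in 20. The median member log2 ratio to the control mean on the TMM scale was -0.3749 in replicate 1 of unweathered 0.54 g/L, against -0.0437 to 0.0871 in the other 4 libraries. In the same library TRINITY_DN2261_c4_g1 had 36.8 CPM, against 64.9 to 72.5 CPM. In weathered 0.67 g/L, TRINITY_DN18165_c0_g1 had 17.5 CPM in replicate 1, against 26.2 to 26.8 CPM in the others. TRINITY_DN14306_c0_g1 had 3472 CPM in replicate 3 of that group, against 3798 to 3897 CPM in the others. The member of rank 22 had a library apart in 3 groups. It stood at 74.9 CPM in control replicate 5, against 64.8 to 67.4 CPM in the other 4. It stood at 47.4 CPM in replicate 3 of weathered 0.67 g/L, against 67.1 to 74.3 CPM, and 51.5 CPM in replicate 3 of unweathered 0.54 g/L, against 46.0 to 47.1 CPM.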

How the results depend on the processing

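Of the 32 members, 15 remained when at least 3 weathered 2.68 g/L libraries had to be not below the lowest control and 2 when all 5 had to be. With CPM on upper-quartile-scaled sizes the rule gave 102 genes, 24 of them members, on TMM-scaled sizes 45 with 16 members, and without 1 library 23 to 64. The number of members called was 0 in each of the 6 comparisons by edgeR and 0 with the replicate block, whose medians were -0.036, -0.284, -0.231, -0.066, -0.044 and 0.208 in the order 0.54 against 0.27 g/L, 0.54 and 0.27 g/L against weathered 0.67 g/L, and 0.54, 0.27 and weathered 0.67 g/L against control. Same-numbered libraries had correlations from -0.42 to 0.52 (median 0.0065, 33 of 105 pairs over 0.1), and 3 of 35 correlated best with their own number. Libraries of other numbers had correlations from -0.65 to 0.61 (median 0.0015, 143 of 420 pairs over 0.1). DESeq2 called 1 member in 0.54 and in 0.27 g/L against weathered 0.67 g/L, beside 152 and 158 of 17990 genes. Leaving out 1 library gave 0 to 1 members called in these comparisons and 0 elsewhere. On library totals the median against control moved to -0.2046 with 0.54 g/L, to -0.1759 with 0.27 g/L and to -0.0132 with weathered 0.67 g/L. Without 1 library the medians ran, in the same order, from -0.0804 to 0.0205, -0.358 to -0.169, -0.308 to -0.16, -0.109 to -0.0092, -0.0815 to 0.0062 and 0.0944 to 0.293. The log2 change of TRINITY_DN2261_c4_g1 in 0.27 g/L against weathered 0.67 g/L was 0.0278 without weathered 0.67 g/L replicate 1 and weathered 1.34 g/L replicate 3, and -0.254 to 0.0279 without 1 library. That of TRINITY_DN18165_c0_g1 in 0.54 g/L against weathered 0.67 g/L was 0.0327 on library totals and -0.0677 to 0.028 without 1 library. The median r of the members was 0.605 on library totals, an alternative chosen after seeing the data. The cause of these moves was not tested. A member that was not called is not shown to be level.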
